A study of Mus musculus with 6 samples.

Results

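The translation initiation factors and aminoacyl-tRNA synthetases of mouse bone marrow were compared between ASXL1-MT-transplanted and mock-transplanted mice. Members were the probe sets to which the platform annotation gave exactly 1 gene symbol, either a symbol beginning with Eif and a number from 1 to 6 or the symbol of a synthetase made of 1 letter and ars, ars1 or ars2, with Eprs added. The kinases Eif2ak and the sex-linked genes Eif2s3x and Eif2s3y were left out by that rule. It gave 179 probe sets of the 45037 on the array, for 74 of 18193 named genes. Of these, 115 probe sets belonged to 41 initiation factor genes and 64 to 33 synthetase genes, and 22 member genes had 1 probe set alone.

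The study hybridised 3 samples from ASXL1-MT mice and 3 from mock mice to Affymetrix oligonucleotide arrays. ASXL1 is a chromatin regulator whose truncated forms recur in myelodysplastic syndrome, and the labels describe a disease resembling that syndrome in the ASXL1-MT mice and call the mock mice normal controls. The same prefix for a marrow transplant opens the titles of both groups. The labels used here do not give the exact ASXL1 mutation, what the mock mice received, the strain, the age, or the share of donor cells in the marrow. RNA came from marrow cells left after magnetic removal of cells bearing CD3e (T cells), B220 (B cells) or TER-119 (red cell precursors). This removal is given for both groups in the series text, but among the source labels only those of the mock samples name it. Nothing states whether the 3 samples in each group were taken from different mice, so a p-value here weighs the spread of these samples alone, and that spread may be technical.

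Protein synthesis starts when the small ribosomal subunit, loaded with eIF2, GTP and the initiator tRNA, is brought to the capped end of an mRNA by eIF3 and the eIF4 cap-binding complex and scans to the start codon. There eIF5 triggers GTP hydrolysis on eIF2, eIF5B joins the large subunit, and eIF2B reloads eIF2 with GTP. Aminoacyl-tRNA synthetases attach each amino acid to its tRNA, mostly with separate enzymes for the cytosol and for mitochondria. Gars and Kars serve mitochondria too and were counted here as cytosolic. In blood formation, stem and progenitor cells are known to need a closely held rate of protein synthesis, and the making of ribosomes is known to decline as neutrophils mature.

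All values below are the deposited log values, taken as log2 and centred by the authors on each probe set's median over the 6 arrays, so a value is a level relative to that probe set's own median and shows nothing of how strongly a gene is expressed. Each change below subtracts the mock mean from the ASXL1-MT mean on that log2 scale. With centred values, a group above its probe set's median sets the other below it. The test was limma's over all 45037 probe sets, two-sided, with Benjamini-Hochberg adjustment and a threshold of 0.05, and the small number of arrays limits its precision. A probe set is called bright where its 3 highest arrays have the rounding that a signal of at least 256 leaves, if the log base is 2. A weaker signal can meet this rule by chance, so bright does not prove a signal of 256. The others are called dim, which means only that they missed this rule, since no uncentred signal was at hand to check it. Of the members 119 were bright (66.5%), against 38.2% of all probe sets, with 84 among initiation factors and 35 among synthetases. Of those 119, 111 showed that rounding on all 6 arrays. Eif5a2 1434593_at and Eif6 1431582_at were among the other 8, so they met the rule through the group in which they were high.

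Past the threshold, 6 member probe sets rose and 2 fell in ASXL1-MT marrow, 4.47% of the 179. Over all probe sets 8.1% passed, 4.73% higher and 3.37% lower, so the members' share of calls was below that of the array. Among initiation factors Eif5a2, Eif4b and Eif4e rose and Eif5 and Eif6 fell, and among synthetases the mitochondrial enzymes Vars2 and Pars2 rose. The size of the changes was also modest, with a median absolute change of 0.35 for members and 0.53 for all probe sets. Per gene, from the mean of its probe sets, 4 of 74 rose and 2 fell (8.11%), where 11.4% of all genes passed, 6.63% higher and 4.75% lower. In the whole fit none of the 6 initiation factor calls held when any 1 of the 6 arrays was left out (smallest adjusted p = 0.0509 in limma). Of the synthetase calls Pars2 held without ASXL1-MT replicate 1 (adjusted p = 0.0441 in limma). Most calls were lost over the whole array too, with between 66 and 1142 probe sets past the threshold in place of 3646.

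**Figure D1:**
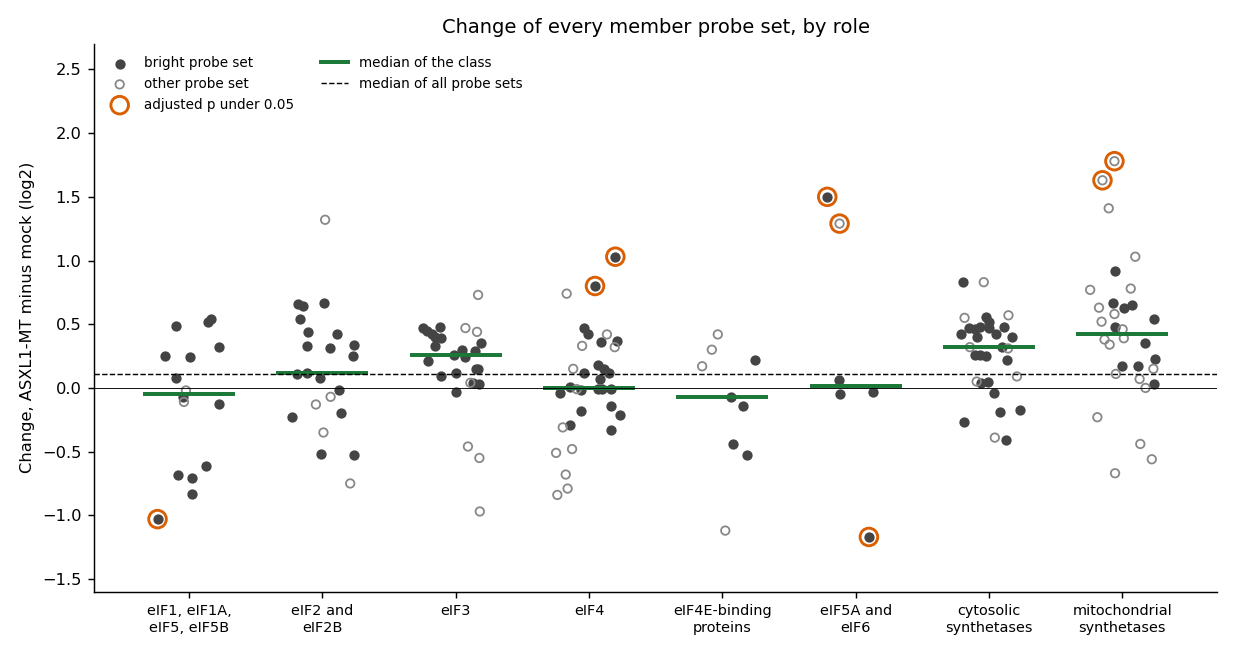
Change of each of the 179 member probe sets (y axis, ASXL1-MT minus mock, log2) by role (x axis), with filled points for bright probe sets, open points for the others, orange rings for adjusted p under 0.05 and green bars for class medians. Synthetases and eIF3 lie mostly above 0, with medians of 0.39 over all synthetases and 0.26 for eIF3, beside a median of 0.11 for all probe sets.

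Eif5a2 had the largest rise among initiation factors. It is the second gene for eIF5A, the hypusine-bearing factor that helps ribosomes through difficult stretches, and is known for raised levels in several tumours. Its bright probe set 1434593_at read 0.85, 0.59 and 0.71 on the ASXL1-MT arrays, against -0.98, -0.78 and -0.59 on the mock arrays. Every ASXL1-MT array lay above every mock array. The change was 1.50 (SE 0.17, adjusted p = 0.0185 in limma), a 2.83-fold difference if the log base is 2. The second probe set, 1438256_at, was dim and rose by 1.29 (SE 0.23, adjusted p = 0.0382 in limma). It read 0.98, 0.44 and 0.43 on the ASXL1-MT arrays and -0.70, -0.89 and -0.43 on the mock arrays. Its groups were also apart, with ASXL1-MT replicate 1 the highest. After quantile normalization or cyclic loess that second call was lost (adjusted p = 0.0563 and 0.0506). The common eIF5A gene, Eif5a, showed changes of 0.06 and -0.05 in its 2 probe sets, and their groups overlapped.

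Both Eif4 calls were in genes of the step that recruits mRNA. Eif4b, a cofactor of the eIF4A helicase, read 0.34, 0.47 and 0.51 on the ASXL1-MT arrays and -0.72, -0.34 and -0.72 on the mock arrays in probe set 1426379_at. It rose by 1.03 (SE 0.18, adjusted p = 0.0336 in limma) with no overlap, and mock replicate 2 was the closest to the ASXL1-MT arrays. The other Eif4b probe sets, 1426378_at and 1426380_at, changed less, by 0.42 and 0.47 (adjusted p = 0.126 and 0.123), with the groups apart in both. Eif4e, the cap-binding protein itself, read 0.27, 0.42 and 0.48 on the ASXL1-MT arrays and -0.48, -0.49 and -0.27 on the mock arrays in probe set 1423220_at. All 3 ASXL1-MT arrays lay above all 3 mock arrays. The rise was 0.80 (SE 0.15, adjusted p = 0.0411), and the call was lost with array medians set equal (adjusted p = 0.0521), after quantile normalization (0.0518) and after cyclic loess (0.0569). Bright Eif4e probe sets 1450908_at and 1450909_at had changes of 0.36 and 0.37, and the dim probe set 1444010_at had -0.84 (adjusted p = 0.158).

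The promoters of Eif4e and Eif5a2 are shown because the only raised cap-binding factor and the most raised initiation factor each have a window that holds the letters CACGTG, the E-box bound by MYC and related factors, more than once. That of Iars, the cytosolic synthetase with the largest bright change, is shown beside them. Sequences are the 250 bases before the transcription start in RefSeq on GRCm38.p6, plus strand, at chr3:138527018-138527267 for Eif4e, chr3:28781027-28781276 for Eif5a2 and chr13:49681880-49682129 for Iars. Capitals mark CACGTG, which reads the same on both strands.
Eif4e: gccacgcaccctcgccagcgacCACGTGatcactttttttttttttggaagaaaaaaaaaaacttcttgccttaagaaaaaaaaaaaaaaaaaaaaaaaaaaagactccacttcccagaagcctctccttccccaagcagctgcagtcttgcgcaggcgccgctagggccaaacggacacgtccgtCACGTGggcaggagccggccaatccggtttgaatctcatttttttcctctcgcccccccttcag
Eif5a2: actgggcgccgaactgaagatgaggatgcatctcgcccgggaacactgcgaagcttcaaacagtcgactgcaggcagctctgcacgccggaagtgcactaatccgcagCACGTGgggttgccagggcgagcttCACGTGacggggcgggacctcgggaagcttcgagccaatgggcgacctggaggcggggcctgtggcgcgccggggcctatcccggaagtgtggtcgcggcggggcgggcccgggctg
Iars: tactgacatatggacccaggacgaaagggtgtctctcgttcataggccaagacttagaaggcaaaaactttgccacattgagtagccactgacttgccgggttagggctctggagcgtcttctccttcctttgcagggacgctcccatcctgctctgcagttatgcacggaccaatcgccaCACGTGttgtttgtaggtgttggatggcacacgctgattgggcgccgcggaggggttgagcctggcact
The first base of each match lay at -228 and -64 in Eif4e, at -142 and -117 in Eif5a2 and at -69 in Iars, counted from the transcription start. In windows of 250 bases before to 50 bases after the start, CACGTG was in 11 of 44 initiation factor windows (25%), in 4 of 25 synthetase windows (16%) and in 7.15% of the 32851 windows of the RefSeq table. TGATGNAA, the core of the element bound by ATF4 with C/EBP factors, was looked for on both strands, and no match of it overlapped a CACGTG match. It was in 5 synthetase windows (20%), those of Aars, Gars, Iars, Tars and Yars, in 0 of the initiation factor windows and in 3.97% of all windows. Windows were found for 56 of the 74 member genes. Among genes called in the whole fit, a second Eif4e window and the windows of Eif4b, Eif5 and Vars2 lacked CACGTG. No window was found for Eif6 and Pars2. Members not called there that held CACGTG were Eif1b, Eif3a, Eif3f, Eif3k, Eif4a1, Eif4h, Eif5a (3 windows), Aars, Ears2, Iars and Tars. Myc itself rose by 2.43 and Atf4 fell by 1.79 in the gene fit (adjusted p = 0.0269 and 0.0345 in limma), and their part in the members' values was not tested.

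**Figure D2:**
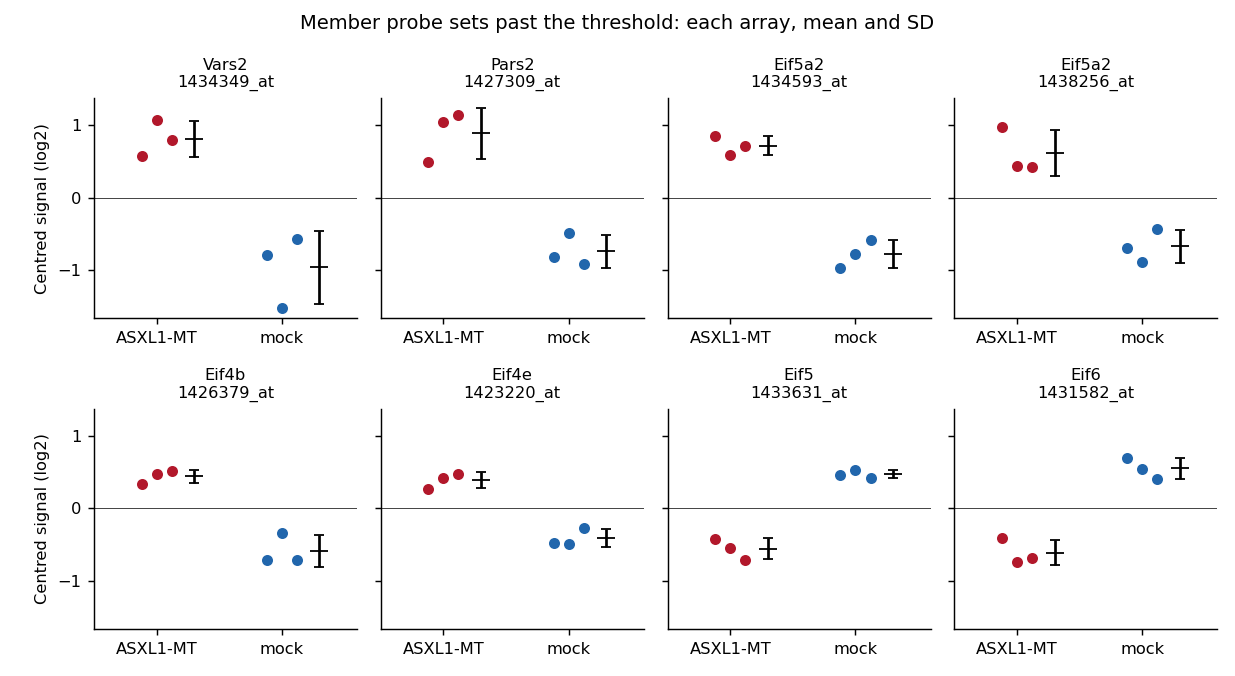
Centred signal (y axis, log2) of the 8 member probe sets past the threshold on each ASXL1-MT array (red, left) and mock array (blue, right), with the group mean and SD (n = 3) in black. The groups do not overlap in any of the 8 panels, and Vars2 and Pars2, which were not bright, have the widest spread.

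Eif5 and Eif6 were the members that fell. Eif5 is the GTPase-activating protein of eIF2 at the start codon. Probe set 1433631_at read -0.42, -0.55 and -0.71 on the ASXL1-MT arrays and 0.46, 0.53 and 0.42 on the mock arrays, a change of -1.03 (SE 0.15, adjusted p = 0.0264 in limma). All 5 Eif5 probe sets were bright, had negative changes and had groups that were apart. The other 4 changed by -0.83 (1415723_at), -0.71 (1454664_a_at), -0.68 (1456256_at) and -0.61 (1454663_at), with adjusted p between 0.0545 and 0.188. Probe set 1456256_at stood out in ASXL1-MT replicate 1, which read -0.04, beside -0.95 and -0.70 in replicates 2 and 3. Eif6 keeps the large ribosomal subunit from joining too early. It fell by 1.17 in probe set 1431582_at (SE 0.17, adjusted p = 0.0261), with -0.41, -0.74 and -0.69 on the ASXL1-MT arrays and 0.70, 0.55 and 0.41 on the mock arrays. Its second bright probe set, 1427578_a_at, had a change of -0.03 with overlapping groups, so the probe sets of Eif6 disagreed.

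Bright probe sets were also fitted alone, as an alternative, and genes named from that fit were chosen after their values were seen. Of all 17205 bright probe sets 39.4% then passed, 23.6% higher and 15.8% lower. Of 84 bright initiation factor probe sets 19 were higher and 7 lower (31%), and of 35 synthetase probe sets 15 were higher and 1 lower (45.7%). Members whose rounding met the rule on all 6 arrays gave 18 higher and 6 lower of 79 initiation factor probe sets and 15 higher and 1 lower of 32 synthetase probe sets. The share called among all 12606 probe sets that met it on all 6 arrays was not taken. With array medians set equal in that fit, 13 initiation factor probe sets were higher (15.5%) and 8 lower (9.52%). Of the synthetase probe sets 12 were higher (34.3%) and 1 lower (2.86%). Over all bright probe sets these shares were 19.2% higher and 18.4% lower. When 1 array was left out of the bright fit, the counts for initiation factors ranged between 5 and 21 higher and between 5 and 7 lower. Those for synthetases ranged between 6 and 14 higher and between 0 and 1 lower. Over all 17205 bright probe sets they ranged between 2416 and 3516 higher and between 1756 and 2550 lower. The lowest counts of higher members, 5 and 6, came without ASXL1-MT replicate 3.

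At the start codon, 4 of the 5 Eif5 probe sets passed in the bright fit, with adjusted p between 0.00229 and 0.00794 in limma, and each of these 4 passed with any 1 array left out. Eif5b, the GTPase of subunit joining, went the other way. It read 0.17, 0.33 and 0.34 on the ASXL1-MT arrays and -0.36, -0.19 and -0.17 on the mock arrays in probe set 1434604_at. Its change was 0.52 (adjusted p = 0.0117 in the bright fit and 0.0954 in the whole fit), and a second bright probe set, 1434605_at, had 0.49. The eIF1A gene Eif1ax, whose product promotes scanning, had 0.54 in probe set 1449576_at (bright fit adjusted p = 0.0305) and 0.08 in bright probe set 1419736_a_at. Of the 16 probe sets of this class, 7 had positive changes.

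None of the 23 probe sets of eIF2 and eIF2B passed in the whole fit, where 4 had a positive and 1 a negative change at an unadjusted p under 0.05 (16.1% and 10.2% of all probe sets did). Eif2s2, the beta subunit of eIF2, read 0.65, 0.17 and 0.47 on the ASXL1-MT arrays and -0.30, -0.17 and -0.25 on the mock arrays in probe set 1448820_a_at. The groups were apart, and the change was 0.67 (SE 0.18, adjusted p = 0.0858 in limma, and 0.0149 in the bright fit). Its other 4 bright probe sets had changes between -0.23 and 0.31. Eif2a, an initiator tRNA carrier that is not a subunit of eIF2, had 0.64 in probe set 1460575_at (SE 0.18, adjusted p = 0.0927), with 0.36, 0.15 and 0.29 on the ASXL1-MT arrays and -0.15, -0.59 and -0.37 on the mock arrays. These groups were apart too. Eif2b5, the catalytic subunit of eIF2B, had 0.42 in probe set 1433886_at (bright fit adjusted p = 0.0376), and Eif2d, a factor of non-canonical initiation, had 0.54 in 1437720_at (0.017). Bright probe sets of Eif2b1, Eif2b3 and Eif2b4 had 0.33, 0.34 and 0.25, and those of Eif2b2 disagreed, from -0.52 to 0.44.

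The eIF3 complex, a scaffold that holds the small subunit and the mRNA, moved little in size but mostly one way. Of its 27 probe sets 23 had positive changes (85.2%, against 55.9% of all probe sets), with a median of 0.26. In 13 the groups were apart with ASXL1-MT higher and in 0 with ASXL1-MT lower, beside 21.7% and 13.7% of all probe sets. These 13 were all bright and made up 65% of the 20 bright eIF3 probe sets. Of all bright probe sets 33.4% were apart with ASXL1-MT higher and 22% with ASXL1-MT lower. Array medians of the class were 0.13, 0.05 and 0.15 on the ASXL1-MT arrays and -0.22, -0.06 and -0.09 on the mock arrays. Mock replicate 1 was the lowest of the 6 arrays in 66.7% of the 27 probe sets, against 21% of all probe sets, and the class median without it was 0.19. No eIF3 probe set passed in the whole fit, and 6 of the 20 bright ones (30%) were higher in the bright fit, of Eif3a, Eif3b, Eif3d, Eif3e, Eif3l and Eif3m, where 23.6% of all bright probe sets were higher. With array medians set equal that count was 3 (15%), below the 19.2% of all bright probe sets. With 1 array left out it was between 1 and 5, where between 2416 and 3516 of all 17205 bright probe sets were higher.

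Within eIF3 the smallest p-values belonged to Eif3l and Eif3a. Eif3l read 0.31, 0.18 and 0.28 on the ASXL1-MT arrays and -0.26, -0.18 and -0.20 on the mock arrays in probe set 1423728_at. Its groups were apart, with a change of 0.47 (SE 0.14, adjusted p = 0.103 in limma, and 0.0101 in the bright fit), and the bright call held with each array left out. Eif3a, the largest subunit, had 0.45 in 1416659_at (SE 0.14, adjusted p = 0.115, and 0.0127 in the bright fit), with 0.35, 0.16 and 0.29 on the ASXL1-MT arrays and -0.19, -0.16 and -0.20 on the mock arrays. Its 3 other bright probe sets had 0.30, 0.24 and 0.03. The 4 bright probe sets of Eif3c lay between -0.03 and 0.15, and those of Eif3h and Eif3k had 0.21 and 0.09. Negative values below -0.4 in this class came from 3 dim probe sets of Eif3e and Eif3h, whose arrays ranged between -3.30 and 1.21.

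**Figure D3:**
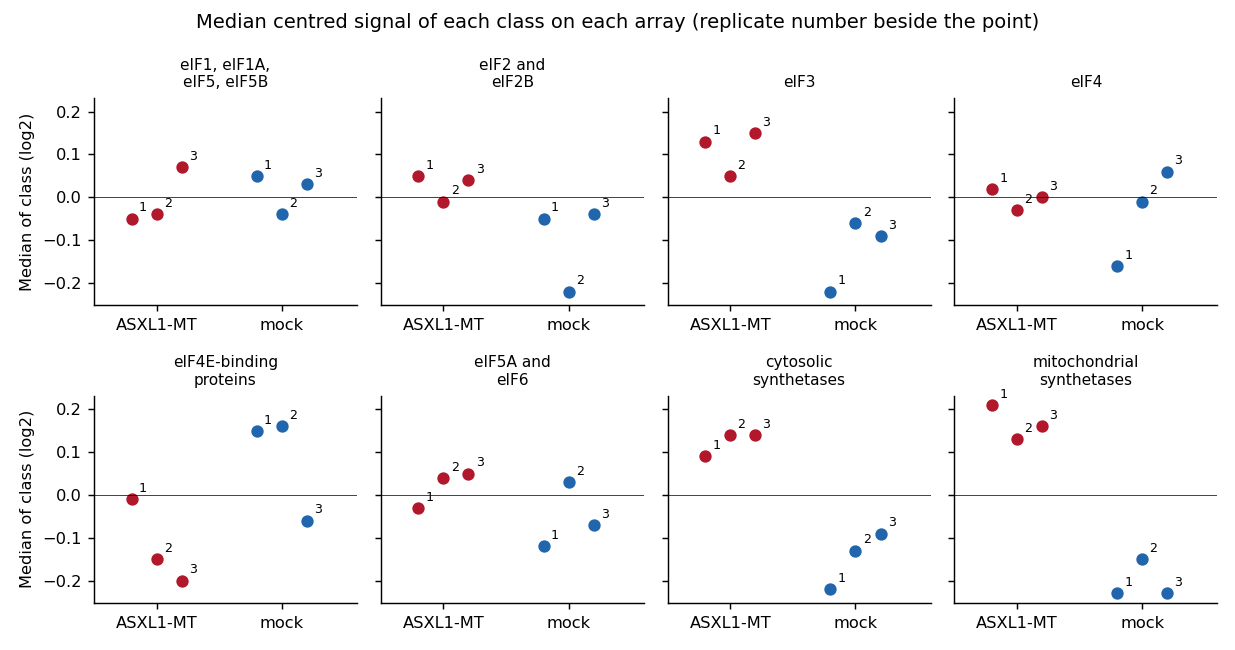
Median centred signal (y axis, log2) of the members of each role class on each array, with ASXL1-MT (red) left of mock (blue) and the replicate number beside each point. The groups are apart for eIF2 and eIF2B, eIF3 and both synthetase classes, and overlap for the start codon factors, eIF4, the eIF4E-binding proteins and eIF5A with eIF6. The median of all probe sets is apart too, with 0.02, 0.05 and 0.05 on ASXL1-MT arrays and -0.05, -0.03 and -0.05 on mock arrays. For eIF2 and eIF2B the gap is narrow, with -0.01 on the lowest ASXL1-MT array and -0.04 on the highest mock array.

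Over its 34 probe sets the eIF4 class, Eif4b and Eif4e included, had a median change of 0.00, with 17 positive. Probe sets of the helicase Eif4a1 had 0.01, 0.18 and 0.12, and Eif4a2 had -0.21. The bright probe sets of the scaffold Eif4g3 and of Eif4g2, a relative that lacks the site for eIF4E, had changes between -0.33 and -0.01. Eif4e3, a second cap-binding protein, had -0.29 in 1417977_at, which passed in the bright fit with equal medians alone (adjusted p = 0.042, against 0.0827 in the bright fit). Eif4h, a helicase cofactor related to Eif4b, had 0.12, 0.15, -0.01 and -0.02 in its 4 bright probe sets.

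Among proteins that bind eIF4E, Eif4ebp1, the repressor released by mTOR phosphorylation, was the lowest bright gene. Probe set 1434976_x_at read -0.20, -0.25 and -0.26 on the ASXL1-MT arrays and 0.48, 0.20 and 0.21 on the mock arrays, and 1417562_at read -0.17, -0.16 and -0.20 against 0.45, 0.16 and 0.17. In both the groups were apart, and mock replicate 1 was the highest array. The changes were -0.53 (SE 0.15, adjusted p = 0.0994 in limma) and -0.44 (SE 0.15, adjusted p = 0.15), with 0.0138 and 0.0261 in the bright fit. Its dim probe set 1417563_at had 0.42 with overlapping groups. Eif4ebp2 had -0.07 and -0.14 in its bright probe sets, and Eif4enif1, which carries eIF4E to the nucleus, had 0.22. The lowest change of the class, -1.12, was in a dim Eif4ebp2 probe set, and 4 of the 9 probe sets had positive changes. None of these 9 probe sets passed in the whole fit.

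The synthetase changes were mostly one-sided, like those of eIF3, which is described here and was not tested. Of 64 probe sets 53 had positive changes (82.8%), against 55.9% of all probe sets. The median change was 0.39, beside 0.12 for initiation factors and 0.11 for all probe sets, and with array medians set equal it was 0.30, beside 0.02 for all. In 28 probe sets (43.8%) the groups were apart with ASXL1-MT higher and in 1 (1.56%) with ASXL1-MT lower. Over all probe sets these shares were 21.7% and 13.7%. Among bright ones they were 57.1% and 2.86% for synthetases, beside 33.4% and 22% for all. Array medians of the 64 synthetase probe sets were 0.14, 0.14 and 0.15 on the ASXL1-MT arrays and -0.22, -0.13 and -0.13 on the mock arrays. Mock replicate 1 was the lowest array in 37.5% of these 64, against 21% of all probe sets, and the median change without it was 0.28. Among bright synthetase probe sets it was lowest in 51.4%, against 25.4% of all bright ones. At the threshold only 2 of the 64 passed (3.12%), and none of the cytosolic ones.

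Cytosolic enzymes had a median change of 0.32 over 32 probe sets, 26 of them positive. The isoleucine enzyme Iars had the largest bright change, with 0.27, 0.31 and 0.43 on the ASXL1-MT arrays and -0.73, -0.47 and -0.27 on the mock arrays in 1426705_s_at. The groups were apart and mock replicate 1 was lowest. The change was 0.83 (SE 0.18, adjusted p = 0.0539 in limma), just outside the threshold, and in the bright fit it passed (0.00766), also with each array left out. Hars, the histidine enzyme, had 0.56 in 1417024_at (SE 0.14, adjusted p = 0.0792, and 0.00852 in the bright fit), with 0.32, 0.21 and 0.20 on the ASXL1-MT arrays and -0.36, -0.41 and -0.20 on the mock arrays. Its second probe set had 0.48. Further cytosolic probe sets that passed upward in the bright fit belonged to Eprs, Kars, Mars1, Qars, Sars and Wars, with changes between 0.40 and 0.52.

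Several of these enzymes, those for glutamate and proline (Eprs), isoleucine, lysine (Kars), methionine (Mars1), glutamine (Qars), arginine (Rars) and leucine (Lars), sit together in the multisynthetase complex. Eprs read 0.15, 0.14 and 0.16 on the ASXL1-MT arrays and -0.36, -0.14 and -0.24 on the mock arrays in 1452157_at, and its bright probe sets had 0.25, 0.40 and 0.48. Lars and Rars, each with 1 dim probe set, had 0.05 and 0.09. Qars was the one gene with calls in both directions in the bright fit, 0.42 in 1456726_x_at and -0.41 in 1456213_x_at (adjusted p = 0.0118 and 0.0369), with 0.22 in 1423712_a_at. The suffix x marks probes that can bind other transcripts too, as 32 of the member probe sets with x or s do. Aars, Cars, Nars and Vars had bright changes between -0.27 and 0.05, all with overlapping groups. The synthetases were thus not uniform within the cytosol.

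**Figure D4:**
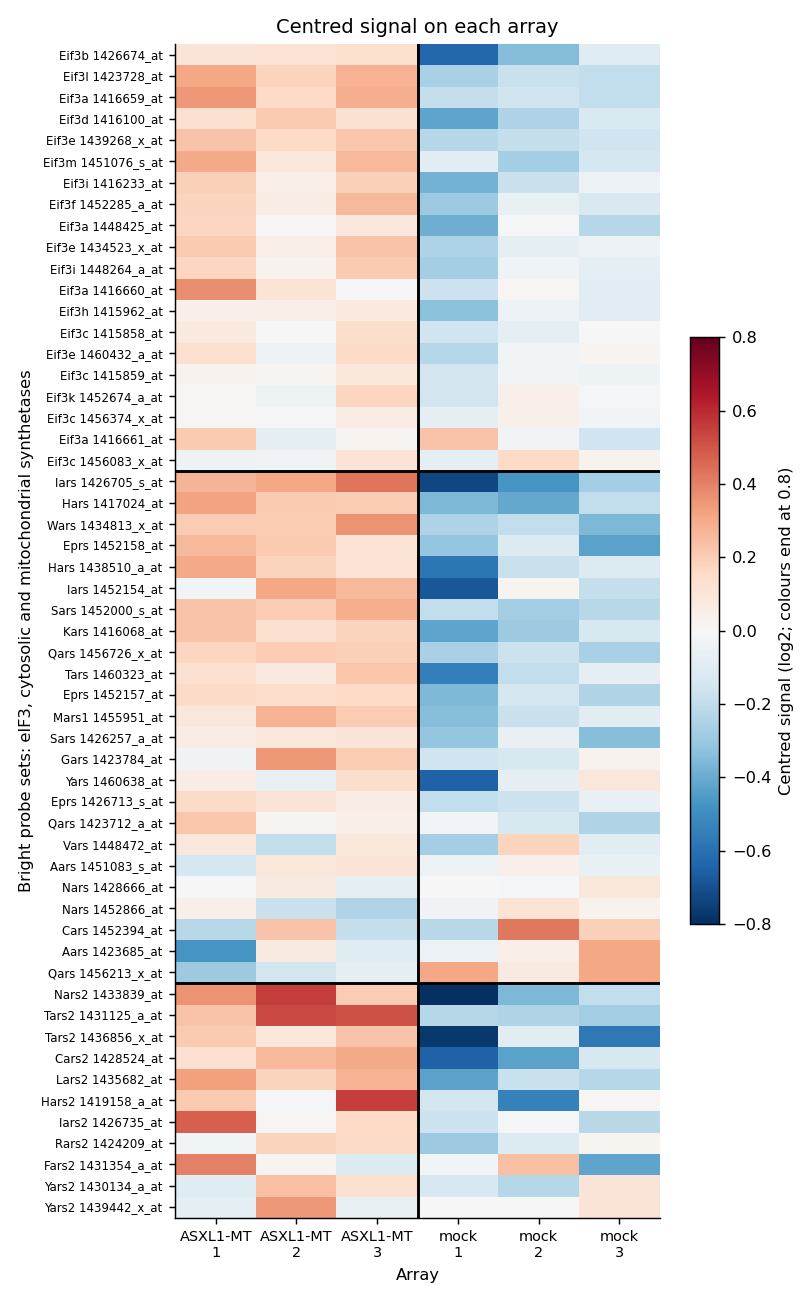
Centred signal (colour, log2, ending at 0.8) of the bright probe sets of eIF3 (top), cytosolic synthetases (middle) and mitochondrial synthetases (bottom) on the 3 ASXL1-MT arrays (left) and the 3 mock arrays (right). Most lines are red in ASXL1-MT and blue in mock marrow, mock replicate 1 holds the deepest blue, and Qars 1456213_x_at runs the other way.

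Mitochondrial enzymes had a median change of 0.42 over 32 probe sets, of which 27 were positive and only 11 bright (34.4%). Vars2, the valine enzyme, read 0.57, 1.07 and 0.79 on the ASXL1-MT arrays and -0.80, -1.53 and -0.57 on the mock arrays in 1434349_at. It rose by 1.78 (SE 0.31, adjusted p = 0.0359 in limma), the largest change of any member, while its second probe set had 0.58 with overlapping groups (adjusted p = 0.436). Pars2, the proline enzyme, read 0.49, 1.04 and 1.14 on the ASXL1-MT arrays and -0.82, -0.49 and -0.92 on the mock arrays in its 1 probe set, and rose by 1.63 (SE 0.25, adjusted p = 0.0277). The groups were apart in both, but neither probe set was bright, and a large fold between dim signals may rest on readings near background. Among bright ones, Tars2 had 0.67 in 1431125_a_at, with 0.23, 0.53 and 0.51 on the ASXL1-MT arrays and -0.23, -0.24 and -0.28 on the mock arrays. It missed the threshold (adjusted p = 0.0613) and passed in the bright fit (0.00724). Cars2, Lars2 and Nars2 also passed there, with 0.63, 0.54 and 0.92.

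The largest negative synthetase value, -0.67 for Iars2 in the dim probe set 1441665_at, came from 1 array. It read 0.34, -2.03 and -0.01 on the ASXL1-MT arrays and -0.21, 0.52 and 0.01 on the mock arrays. Without ASXL1-MT replicate 2 the change was 0.06, and the bright Iars2 probe set 1426735_at had 0.35. The other negative mitochondrial values, of Aars2, Ears2 and Nars2, were in dim probe sets whose groups overlapped.

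Cytosolic and mitochondrial enzymes were paired by the first letter of their symbols, which gave 14 pairs, and both gene values were positive in 11. By that letter Eprs, which also serves proline, was paired with Ears2 alone and not with Pars2. Fars2 had no pair, since the phenylalanine subunits Farsa and Farsb were outside the rule. The exceptions were alanine, with -0.44 for the mitochondrial Aars2 and -0.12 for the cytosolic Aars, isoleucine, with -0.16 for Iars2 and 0.65 for Iars, and asparagine, with 0.18 for Nars2 and -0.10 for Nars. Bright probe sets alone moved some of these values, with -0.19 for Cars in place of 0.32 and 0.35 for Iars2 in place of -0.16. The mitochondrial enzyme had the higher change in 8 of the 14, so neither compartment led throughout.

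**Figure D5:**
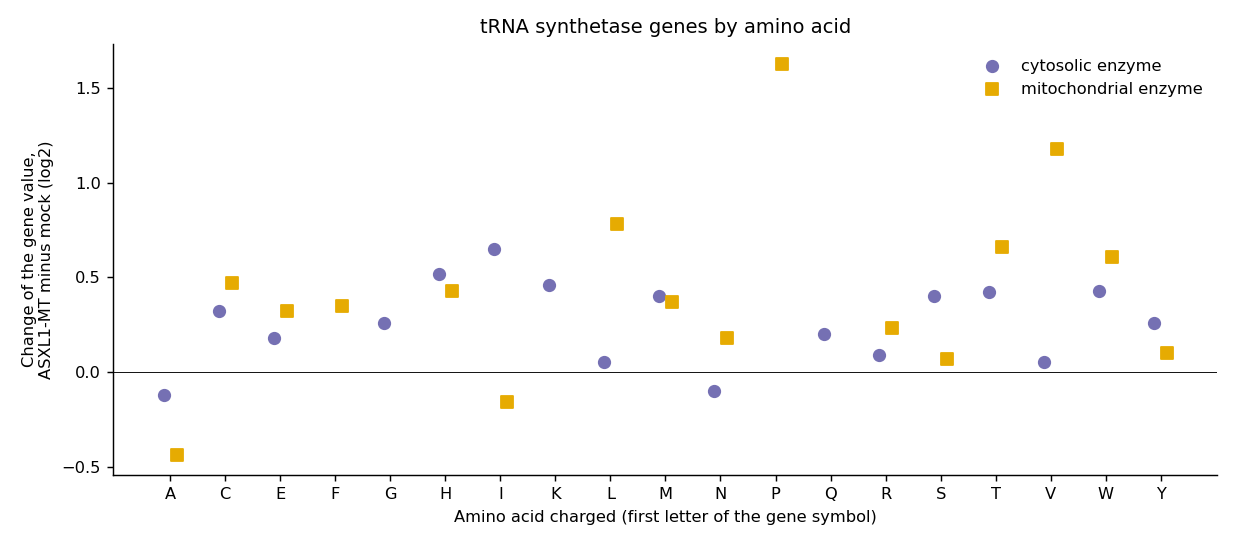
Change of each synthetase gene (y axis, ASXL1-MT minus mock, log2, mean of its probe sets) by amino acid (x axis, first letter of the symbol), with circles for cytosolic and squares for mitochondrial enzymes. Both enzymes lie above 0 for 11 of the 14 letters with both, and Pars2 (P) and Vars2 (V) reach 1.63 and 1.18. Eprs stands under E alone.

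Probe sets of one gene mostly pointed the same way where they were bright. Of 24 initiation factor genes with more than 1 bright probe set, 16 had all changes in one direction, 10 of them positive. Of 9 such synthetase genes 7 did, 6 of them positive. Genes whose bright probe sets disagreed included Eif2b2, Eif2s2, Eif1a, Eif4e2, Qars and Aars.

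Other genes of the pathway were taken from 7 lists of 70 genes, of which 67 were measured, and 8 rose and 8 fell in limma's gene fit, where 6.63% of all genes were higher and 4.75% lower. From bright probe sets alone, 25 of 61 were higher and 7 lower, beside 27.6% and 16.2% of all such genes. The lists, like the members, were chosen with earlier results of these data known. Beside the member synthetases, 3 of 6 further genes of the enzymes and their complex rose. They were Farsb, a phenylalanine enzyme subunit (0.90), Tarsl2, a second threonine enzyme (1.04), and Eef1e1, a complex scaffold (1.00), with adjusted p of 0.0306, 0.0454 and 0.0499. The 8 elongation genes gave no call, with changes between -0.19 and 0.62. In termination and recycling, of 8 genes Abce1, which splits ribosomes, rose by 0.87 and Gspt2, a release factor GTPase, fell by 3.74. Gspt2 had no bright probe set, so its large change rests on dim signals. From bright probe sets alone, 3 of 7 genes of this list were higher and 1 lower. Paip1, a partner of poly(A)-binding protein, rose by 0.67 (0.43 in its bright probe sets), the only call among 9 genes. Of 8 mitochondrial factors Mtif2, the initiation factor 2 of mitochondria, rose by 0.57, and Tsfm, an elongation factor, fell by 1.12 in the mean of its probe sets but had 0.44 in its bright ones.

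Genes of eIF2 kinases and the integrated stress response went both ways. Of 17 genes, 6 fell and 2 rose, and in the bright fit 4 of 14 were lower and 5 higher. The heme-regulated kinase Eif2ak1 fell by 0.75 and the endoplasmic reticulum kinase Eif2ak3 by 1.47, but their bright probe sets had -0.32 and -0.26 and did not pass (adjusted p = 0.291 and 0.351 in limma). The kinases Eif2ak2 and Eif2ak4 had 0.70 and 0.65 (adjusted p = 0.0742 and 0.0563), and passed in the bright fit with 0.94 and 0.65 (0.00348 and 0.00901). The effector Atf4 read -0.40, -1.52 and -1.45 on the ASXL1-MT arrays and 0.67, 0.49 and 0.84 on the mock arrays, and fell by 1.79. Among its targets Chac1 and Sesn2 fell by 1.82 and 1.19, and the serine synthesis genes Phgdh and Psat1 rose by 0.78 and 0.58. Asns, Trib3 and Atf5 did not pass (-0.01, -0.20 and -0.68, adjusted p = 0.977, 0.609 and 0.0858 in limma). Sesn2, Trib3 and Atf5 had no bright probe set. Ppp1r15b, which directs dephosphorylation of eIF2, fell by 0.82. None of 11 mTOR pathway genes passed, with changes between -0.57 and 1.01, but in the bright fit 5 of 9 were higher and 1 lower. Higher there were the kinase Mtor (0.52 in its bright probe sets and 0.01 in all) and its inhibitor Deptor (1.29), with adjusted p of 0.0055 and 0.0011, and lower was its partner Mlst8 (-0.64, adjusted p = 0.00511).

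Markers of cell types moved with the groups at the same time. In limma's gene fit 7 of 13 neutrophil genes fell and 0 rose, and the list mean lay between -0.79 and -0.63 in ASXL1-MT and between 0.47 and 0.67 in mock marrow. Rises were found in 7 of 8 dendritic cell genes (list mean 0.91 to 1.09 in ASXL1-MT and below 0 on every mock array) and in 6 of 8 stem and progenitor genes (0.80 to 0.99 and -1.31 to -0.88). Flt3, which rose by 3.50, was counted in both of these lists. Over all genes 6.63% were higher and 4.75% lower. Falls were found in 4 of 6 megakaryocyte genes and in 3 of 7 eosinophil, basophil and mast cell genes. Rises were found in 1 of 5 erythroid genes, 1 of 5 B cell genes and 2 of 6 genes of T and NK cells (Cd8a and Klrd1), with a fall in 1 gene of T and NK cells (Nkg7). Klrd1 and Nkg7 are genes of NK cells, which the antibodies used do not target. Of 9 genes of monocytes and macrophages, 1 was higher and 1 lower. In stroma and endothelium 2 of 6 rose and 1 fell. Centred values cannot show which markers were near background, but 12 of the 13 neutrophil genes had a bright probe set, against 2 of 5 B cell, 3 of 6 T and NK cell and 2 of 5 erythroid genes. The part of these marker differences in the members' values was not tested, and in such bulk samples fewer cells of a type and less RNA per cell cannot be told apart. Eif1, Eif2s1, Eif3g, Eif4g1 and Dars were not analysed here.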

How the data were processed

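Signals were made with MAS5, per the submitters' processing notes. The deposited values were log values, taken as log2, centred on each probe set's median over the 6 arrays (largest row median 5e-07 in size). The log base, the centring and any floor are not stated in the sources used here and were read from the values. Array medians ran from 0.021 to 0.050 in ASXL1-MT and from -0.053 to -0.028 in mock. The series text names one version of the array and gives the content of another, which the 45037 probe sets do match.

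Groups and replicate numbers came from the sample titles. R 4.3.3 and limma 3.58.1 (lmFit, then eBayes without a trend) fitted group as the sole term, over all probe sets or over 18193 genes (the mean of their probe sets with 1 symbol), with Benjamini-Hochberg adjustment. The fit was tested on simulated data. Symbols were those of the platform annotation, and all 179 member probe sets matched a RefSeq gene by ID. A further 7 probe sets with several symbols, one of them fitting the rule, were left out. A bright probe set had its 3 highest arrays within 0.1 of a step of 20 binary places, the single-precision step of log2 values of 8 and above. Lower values can fall on that step by chance too. Promoters were RefSeq windows of GRCm38.p6, scanned with Python 3.11.15 and pandas 2.3.3.

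The members and lists were chosen with earlier results of these data known. Named members followed a rule: up to 6 genes per role past the threshold, or, where none passed, the 2 probe sets of smallest p, and the largest change in each direction among initiation factors and among synthetases. Alternatives were equal array medians, quantile normalization, cyclic loess, a variance trend without and with robust fitting, a replicate block, bright probe sets alone, each gene's probe set of smallest spread and leaving out each array. Bright probe sets alone with equal medians, or with an array left out, were added after seeing the data.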

Additional observations from a re-analysis of the deposited data

How the results depend on the processing

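As deposited, 4 initiation factor probe sets were higher and 2 lower, 2 synthetase probe sets were higher and 0 lower, and 3646 probe sets passed in all. Higher initiation factor probe sets numbered 2 after quantile normalization or cyclic loess, 10 with a robust trend, 19 among bright probe sets fitted alone and 13 there with equal medians, and the lower ones 5, 5, 5, 7 and 8. Higher synthetase probe sets numbered 4 with a trend, 8 with a robust trend, 15 among bright probe sets and 12 there with equal medians, and lower ones 1 in both bright fits. Higher initiation factor genes, 2 as deposited, numbered 1 with equal medians, quantile normalization or cyclic loess, 12 and 6 in the bright fits and 7 from the probe set of smallest spread, and higher synthetase genes, also 2, numbered 4 with a robust trend, 11 and 10 in the bright fits and 10 from the smallest spread. All calls numbered 5816 with a robust trend, 6778 among bright probe sets and 6472 there with equal medians. The initiation factor median of 0.12 was 0.04 with equal medians, 0.02 after quantile normalization, 0.00 after cyclic loess and 0.04 for bright probe sets with equal medians, and the synthetase median of 0.39 was 0.30, 0.28, 0.27 and 0.31. The cause of these shifts was not tested.

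Same-numbered samples did not deviate together (correlations of -0.009, -0.012 and -0.009), so the numbers were not taken to pair them. With the replicate number as a block limma called 0 probe sets, members or not, and 0 genes of either kind (smallest adjusted p = 0.134), where at an unadjusted p under 0.05 the block left 5826 probe sets higher and 4048 lower in all, 9 initiation factor probe sets higher and 8 lower and 8 synthetase probe sets higher and 0 lower.

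With each array left out, all calls ranged from 66 to 1142, initiation factor probe sets were 0 higher and 0 lower, synthetase probe sets 0 to 1 higher and 0 lower, and genes 0 to 1 in each, and at an unadjusted p under 0.05 between 7 and 16 initiation factor probe sets were higher. Bright probe sets with each array left out gave 5 to 21 higher and 5 to 7 lower initiation factor probe sets, 6 to 14 higher and 0 to 1 lower synthetase probe sets and 4172 to 5994 calls in all (5830 without mock replicate 3). Medians ranged from 0.07 to 0.14 for initiation factors (0.08 to 0.18 if bright) and from 0.28 to 0.41 for synthetases (0.29 to 0.41 if bright). Of the named probe sets, Iars2 1441665_at ranged from -1.12 to 0.06, and changed direction without ASXL1-MT replicate 2. Over all named probe sets and alternatives, 185 values kept direction and side of the threshold, 62 passed it newly and 60 missed it. Brightness and the number of arrays limit what the 60 dim member probe sets can show.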
